A study of Mus musculus with 4 samples.

Results

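The genes described here are 34 transcription factors and marker genes of the pluripotency network of mouse embryonic stem (mES) cells, of 18193 genes with a probe set of their own on the array. They were chosen by name, with earlier results of these data known. A probe set is a group of short oligonucleotides matching 1 stretch of a transcript. It was counted to a member when the platform annotation gave it that gene as its single symbol. All 34 genes were found, with 62 of the 45037 probe sets, and every one is reported. They fall into 4 core factors (Pou5f1, Nanog, Sox2, Sall4), 9 factors of naive ES cells, 8 ES cell marker genes, 11 other regulators and 2 factors of primed cells.

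Total RNA came from E14 cells, an established mES cell line, grown with serum and leukaemia inhibitory factor (LIF). In the Zfp322a RNAi group (2 arrays) the cells had been transfected with a pSuper.puro plasmid that expresses a short hairpin RNA (shRNA) against Zfp322a, a zinc finger gene. In the control RNAi group (2 arrays) they had received pSuper.puro as a mock knock-down. All 4 samples had undergone puromycin selection, for 3 days per the labels. The labels name no mutant allele, both groups carried a plasmid, and the labels give neither the shRNA used nor whether the samples of a group were separate cultures, and the p-values then cover just the spread between these arrays, which may be technical. The comparison asks how the pluripotency network responded when Zfp322a mRNA was lowered.

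Pou5f1 (the gene of Oct4), Nanog and Sox2 are the centre of the network that keeps mES cells undifferentiated, and they bind to and control each other's genes and many others. Around them lie factors typical of the naive state, that of the early epiblast, such as Esrrb, Tfcp2l1, Tbx3 and Zfp42, which LIF and Wnt signals help to sustain. On the way to the primed state, that of the later epiblast, mES cells lose the naive factors and gain Otx2 and Pou3f1.

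The study designed 2 shRNAs against Zfp322a, and their oligonucleotides are shown because they define the knock-down. Capitals mark the longest stretch whose reverse complement follows in the same oligonucleotide, 20 bases, at bases 8 to 27 of 60. The gene-specific region given in the study's methods is shorter, so the capitals reach beyond it. The place of these oligonucleotides in the genome was not analysed here.
Zfp322a shRNA-1: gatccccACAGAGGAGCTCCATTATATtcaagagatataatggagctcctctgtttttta
Zfp322a shRNA-2: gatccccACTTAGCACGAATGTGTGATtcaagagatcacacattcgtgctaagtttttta

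Promoters of 6 members follow, to set genes of unlike response beside each other: Nanog, Sox2 and Zfp42, for which no change was detected, Tfcp2l1 and Utf1, which fell, and Nr0b1, which rose. The sequences are those of RefSeq (GRCm38.p6), from 250 bases before to 50 bases after the transcription start, 5′ to 3′ on the strand of the gene. Such an entry was found for 22 of the 34 members, and of the 2 Nanog entries the first is shown. Capitals mark letters found on either strand: the octamer motif ATGCAAA, which Oct4 can bind, the SOX motif CATTGT, the GC box GGGCGG and the TATA box TATAAA.
Nanog, chr6:122707239-122707538, plus strand: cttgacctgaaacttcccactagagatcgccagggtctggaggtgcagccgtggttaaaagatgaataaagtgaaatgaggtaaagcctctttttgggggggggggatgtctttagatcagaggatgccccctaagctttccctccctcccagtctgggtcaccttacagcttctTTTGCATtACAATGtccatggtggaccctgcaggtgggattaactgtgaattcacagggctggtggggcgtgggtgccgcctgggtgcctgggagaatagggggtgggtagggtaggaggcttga
Sox2, chr3:34649745-34650044, plus strand: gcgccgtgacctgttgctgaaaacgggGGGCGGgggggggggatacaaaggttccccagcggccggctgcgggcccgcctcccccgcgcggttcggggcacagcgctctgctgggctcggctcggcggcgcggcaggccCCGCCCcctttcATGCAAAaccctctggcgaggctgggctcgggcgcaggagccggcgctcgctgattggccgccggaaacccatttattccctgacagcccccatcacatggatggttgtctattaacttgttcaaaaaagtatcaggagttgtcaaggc
Zfp42, chr8:43306960-43307259, minus strand: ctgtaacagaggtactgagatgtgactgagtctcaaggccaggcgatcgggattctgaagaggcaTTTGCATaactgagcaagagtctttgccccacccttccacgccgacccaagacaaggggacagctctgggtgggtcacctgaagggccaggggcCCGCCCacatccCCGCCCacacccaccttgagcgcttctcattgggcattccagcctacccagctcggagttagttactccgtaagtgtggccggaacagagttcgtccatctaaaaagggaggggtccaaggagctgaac
Tfcp2l1, chr1:118627695-118627994, plus strand: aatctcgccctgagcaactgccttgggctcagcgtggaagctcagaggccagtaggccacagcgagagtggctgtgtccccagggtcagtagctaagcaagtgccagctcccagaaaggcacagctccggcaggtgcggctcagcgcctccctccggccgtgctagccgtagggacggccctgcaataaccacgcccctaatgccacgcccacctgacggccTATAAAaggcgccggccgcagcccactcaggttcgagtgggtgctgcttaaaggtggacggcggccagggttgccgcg
Utf1, chr7:139943606-139943905, plus strand: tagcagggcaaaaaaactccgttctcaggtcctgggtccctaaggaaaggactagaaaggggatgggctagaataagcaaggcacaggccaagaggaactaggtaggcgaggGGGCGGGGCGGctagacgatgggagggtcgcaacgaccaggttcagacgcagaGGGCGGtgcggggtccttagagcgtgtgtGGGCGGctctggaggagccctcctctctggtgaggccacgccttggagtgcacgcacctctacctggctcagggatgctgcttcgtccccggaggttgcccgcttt
Nr0b1, chrX:86191525-86191824, plus strand: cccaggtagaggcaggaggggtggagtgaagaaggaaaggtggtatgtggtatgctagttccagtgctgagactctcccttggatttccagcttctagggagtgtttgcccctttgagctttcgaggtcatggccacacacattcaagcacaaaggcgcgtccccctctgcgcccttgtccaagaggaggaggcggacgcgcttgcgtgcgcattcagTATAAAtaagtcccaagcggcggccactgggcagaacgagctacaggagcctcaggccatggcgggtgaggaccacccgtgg

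The octamer letters were present in 4.63% of 32851 promoters and in those of 4 members, Nanog, Sox2, Zfp42 and Zfp296. The SOX letters were present in 12.6% of promoters, among them those of Nanog, Esrrb and Pou5f1. In Nanog the SOX and octamer letters lie on the other strand with 1 base between them, from -75 to -62 relative to the start. That arrangement was present in 2 of the 32851 promoters (0.00609%), and both were entries of Nanog. GC boxes were found in 35.7% of promoters and in those of 11 members; the Utf1 promoter held 4 on the gene strand between -138 and -51, of which the first and the second share 1 base. The TATA box letters were found in 13.6% of promoters and in those of 5 members, Tfcp2l1, Nr5a2, Otx2, Sall2 and Nr0b1. It lay at -28 to -23 in Tfcp2l1, which fell, and at -32 to -27 in Nr0b1, which rose. The element AAGGTCA, which Esrrb can bind, was present in 4.72% of promoters and in 0 member promoters. These are matches of letters in a short window, and no binding was measured on these arrays.

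The arrays were alike in scale, with medians between 6.07 and 6.11 on the log2 scale and Pearson correlations over probe sets of 0.998 within each group and 0.989 to 0.990 across groups. Zfp322a was examined first. On the probe set 1439035_at the log2 values were 8.75 and 8.84 in control cells and 7.53 and 7.13 after RNAi, and on 1452374_at they were 8.82 and 8.89 against 7.08 and 6.89. Both knock-down arrays lay below both control arrays, with 36.2% and 27.4% of the control level left (limma, adjusted p = 0.00220 and 9.35e-04). The reference gene Actb showed no detectable difference (0.095 ± 0.08 and -0.16 ± 0.08 on its 2 probe sets, limma, adjusted p = 0.456 and 0.219).

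Member genes changed in both directions between the groups. Among member probe sets at or above the median level of all probe sets, calls were about as frequent as among all probe sets at that level. Pou5f1, Nanog, Sox2 and Zfp42 showed no detectable difference, whereas Crxos, Tfcp2l1, Rest, Tbx3, Utf1, Sox15 and Tcl1 were down-regulated and Nr0b1, Rif1, Zfp281 and Dppa2 up-regulated on at least 1 probe set. Of 62 member probe sets, 6 were up-regulated and 13 down-regulated after RNAi at an adjusted p of 0.05 (limma, adjusted over all probe sets), and 43 did not pass. This is 30.6% of the member probe sets, beside 20.1% of all 45037 probe sets (10.6% higher and 9.47% lower). Member probe sets were mostly bright: 53 of 62 lay at or above the median level of 6.09, and 18 of these 53 (33.96%) passed, beside 32.9% of all probe sets at or above that level, so that the share of calls among bright members was near that of bright probe sets in general. By gene, 5 of 34 members had a probe set that rose, 11 had one that fell, 0 had both and 18 had none. Thus 47.1% of members had a probe set that passed, at 1.82 probe sets per gene. Over all 18193 genes the share was 31.2%, at 1.92 per gene (16.6% a higher and 15.7% a lower one). Genes were not matched for brightness, and the cut at the median level is a coarse match for probe sets. Members were chosen with earlier results of these data known, so no excess of calls can be read from these shares. The median change of the member probe sets was -0.055, and that of all probe sets was -0.03. Changes are given on the log2 scale, as knock-down mean minus control mean, with the standard error of limma (n = 2 arrays per group), and as linear folds where so called. With the arrays centred on their medians the split was 9 higher and 11 lower.

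**Figure D1:**
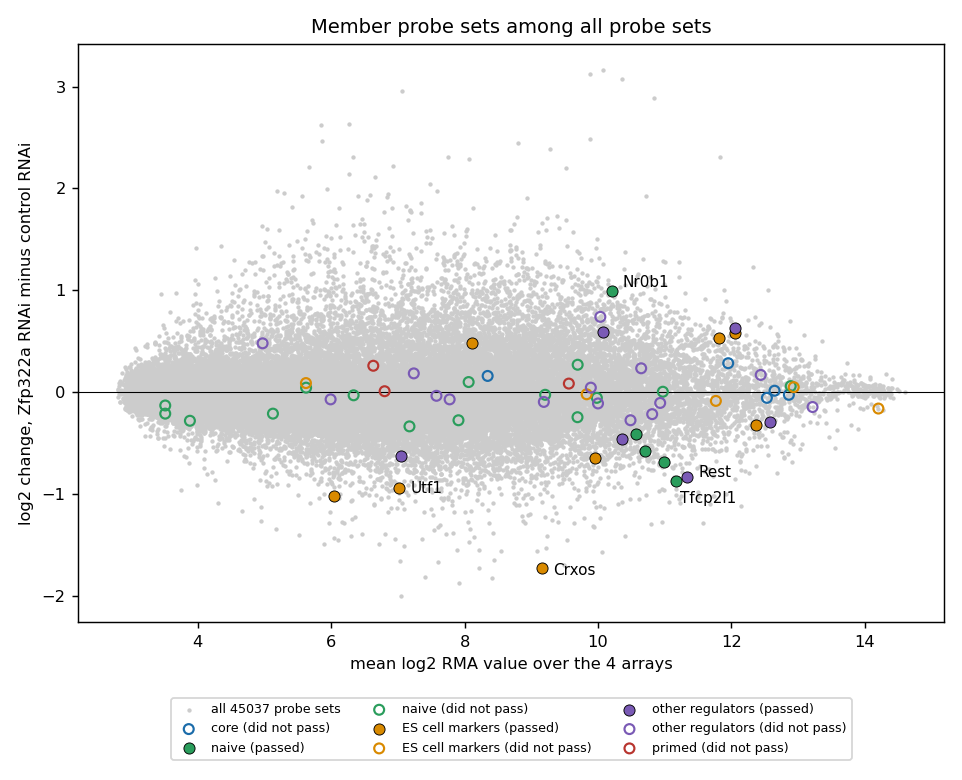
Mean log2 RMA value over the 4 arrays (x axis) against the log2 change, Zfp322a RNAi minus control RNAi (y axis), for all 45037 probe sets (grey) and the 62 member probe sets (coloured by list, filled where the adjusted p of limma was under 0.05). The 5 probe sets of core factors lie between -0.055 and 0.285, while Crxos at -1.725 and Nr0b1 at 0.995 are the members farthest from 0.

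The sizes were moderate. The 1.5-fold rule that the study's methods apply without a test was met by 12 member probe sets, beside 7.31% of all probe sets, with an adjusted p under the threshold for 11 of them (3 higher, 8 lower). Among the calls, 2-fold was passed by 2 probe sets, both of Crxos. Control and knock-down arrays stood apart without overlap for 43 of 62 member probe sets (69.4%), the 19 that passed among them, beside 57.5% of all probe sets. Member probe sets were mostly bright, and the shares in this paragraph were not set beside those of bright probe sets alone. Of the 43 member probe sets that did not pass, 41 had a 95% confidence interval that lay within 1.5-fold in either direction. Like the p-values, these intervals cover just the spread between these arrays. In bulk RNA, fewer cells expressing a gene and less RNA of it per cell cannot be told apart. No probe set of any gene passed the adjusted p once 1 of the 4 arrays was left out (limma), and 22 to 27 member probe sets (35.5% to 43.5%) then had an unadjusted p under 0.05, beside 23.5% to 25.6% of all probe sets.

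**Figure D2:**
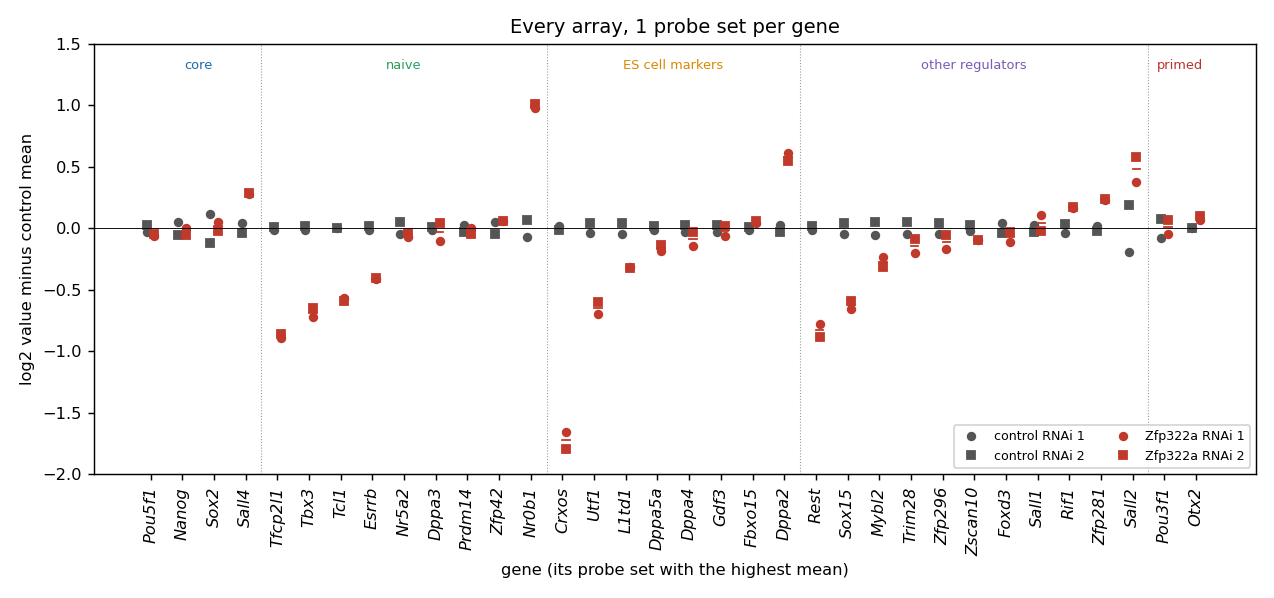
Log2 RMA value per array, with the control mean subtracted (y axis), for the probe set with the highest mean of each of the 34 genes (x axis, grouped by list). Grey points are control RNAi, red points Zfp322a RNAi (circle replicate 1, square replicate 2) and short red lines knock-down means; Pou5f1, Nanog, Sox2 and Zfp42 stay near 0, and Crxos at -1.725 lies lowest.

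The core factors came first. Pou5f1, a POU domain factor, had log2 values of 12.53 and 12.59 in control cells and 12.50 and 12.51 after RNAi. Nanog, a homeodomain factor, had 12.93 and 12.82 against 12.88 and 12.82. For Sox2, an HMG box factor that binds DNA together with Oct4, they were 12.76 and 12.52 against 12.69 and 12.62. The arrays overlapped for Nanog and Sox2, and those of Pou5f1 lay within 0.1 log2 units of each other. Changes were -0.055 for Pou5f1 (95% interval -0.24 to 0.13), -0.025 for Nanog (-0.23 to 0.18) and 0.015 for Sox2 (-0.24 to 0.27), with adjusted p of 0.677, 0.872 and 0.943 by limma. At this precision a change of 1.5-fold (0.58 on the log2 scale) lay outside each interval. The intervals cover just the spread between these arrays, which may be technical, and so set no bound on differences between cultures.

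Sall4, a zinc finger partner of Oct4 and Nanog, was measured with 11.85 and 11.77 in control cells against 12.09 and 12.10 in knock-down cells on its brighter probe set. The groups did not overlap, but the difference of 0.285 ± 0.08 missed the threshold (limma, adjusted p = 0.0504). It passed under 5 of the alternatives run, with adjusted p between 0.00107 and 0.0448. The dimmer Sall4 probe set gave 8.19 and 8.34 against 8.44 and 8.41, a difference of 0.16 (adjusted p = 0.264).

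Among the 9 genes of naive ES cells, Tfcp2l1, Tbx3, Tcl1 and Esrrb each had a probe set that fell and Nr0b1 rose. Of 20 probe sets 1 was higher and 4 lower, with a median change of -0.17. The share that passed, 25.0%, was near the 20.1% of all probe sets. Tfcp2l1, a transcription factor of the grainyhead family that sustains naive self-renewal downstream of LIF, had 11.60 and 11.62 in control cells and 10.72 and 10.75 after RNAi. The groups were far apart against a spread of at most 0.03 within each, and the change of -0.875 ± 0.075 corresponds to a 1.83-fold lower level (limma, adjusted p = 0.00179). The other two Tfcp2l1 probe sets were dim, below 3.8 on every array, and gave -0.13 and -0.21 without passing.

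Tcl1 encodes a co-activator of the kinase AKT. Its values were 11.00 and 11.00 in control cells and 10.43 and 10.41 in knock-down cells, so that the arrays of a group nearly coincided. The change was -0.58 ± 0.075 (limma, adjusted p = 0.00472). Esrrb encodes an orphan nuclear receptor that maintains self-renewal. On its brightest probe set 10.76 and 10.79 stood against 10.36 and 10.37 (change -0.41 ± 0.07, limma, adjusted p = 0.0141), a 1.33-fold lower level. On the dimmer ones the differences were -0.275 (adjusted p = 0.0854) and -0.245 (adjusted p = 0.267), the latter with overlapping arrays.

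Tbx3, a T-box factor, was covered by 5 probe sets. On 1437479_x_at it gave 11.31 and 11.34 in control cells and 10.60 and 10.68 after RNAi, a change of -0.685 ± 0.08 (limma, adjusted p = 0.00342). On 1448029_at, of similar level, it gave 10.98 and 10.96 against 10.97 and 10.98, a difference of 0.005 (adjusted p = 0.976). The suffix _x_at marks a probe set open to cross-hybridization, and the call of Tbx3 rests on it alone. The remaining 3 gave -0.335 (adjusted p = 0.0675), -0.28 (0.143) and 0.045 (0.762).

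Nr0b1 went the other way. It encodes Dax1, an orphan nuclear receptor without the usual DNA-binding domain, which binds to Oct4. Log2 values were 9.64 and 9.78 in control cells and 10.69 and 10.72 in knock-down cells. Both knock-down arrays lay above both control arrays by more than 0.9, and the change of 0.995 ± 0.085 corresponds to 1.99-fold (limma, adjusted p = 0.00177). It was the largest rise of any member probe set that passed.

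The remaining naive factors did not pass. Zfp42, the gene of Rex1 and a marker of undifferentiated mES cells, had 12.91 and 12.81 in control cells against 12.92 and 12.92 after RNAi (0.06, 95% interval -0.13 to 0.25, limma, adjusted p = 0.662). Prdm14, which restrains FGF signalling and DNA methylation in naive cells, had 9.25 and 9.19 against 9.22 and 9.17, and Dppa3, a maternal factor that limits DNA demethylation in the zygote, 6.34 and 6.36 against 6.25 and 6.39. The groups overlapped for Prdm14 and Dppa3, and for Zfp42 they were 0.01 apart. Nr5a2 encodes a nuclear receptor that acts on the Oct4 promoter. Its 4 probe sets ran from -0.21 to 0.27, and that of 0.27 (9.51 and 9.61 against 9.83 and 9.83, adjusted p = 0.0635) passed with dim probe sets left out, with arrays centred and with a variance trend.

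ES cell marker genes held the largest fall of the network. Of 13 probe sets 3 were higher and 5 lower, with a median change of -0.085. That is 61.5%, beside 20.1% of all probe sets and 32.9% of those at or above the median level. Crxos, a homeobox gene of preimplantation embryos and ES cells, gave 10.04 and 10.01 in control cells and 8.37 and 8.23 in knock-down cells on its brighter probe set. Its dimmer probe set gave 6.40 and 6.71 against 5.45 and 5.63. No knock-down array came near the control arrays on either one. The level was 3.31-fold lower on the first (-1.725 ± 0.085, limma, adjusted p = 9.35e-04) and 2.02-fold lower on the second (-1.015 ± 0.13, limma, adjusted p = 0.00434).

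Utf1, a chromatin-associated factor and an Oct4 and Sox2 target, gave 10.24 and 10.32 in control cells against 9.58 and 9.68 after RNAi. A dimmer probe set gave 7.50 and 7.48 against 6.63 and 6.48. Both fell, by -0.65 ± 0.08 and -0.935 ± 0.09 (limma, adjusted p = 0.00459 and 0.00207), and another Utf1 probe set (1458333_x_at), with levels between 5.37 and 5.78, did not pass (0.09). L1td1, an RNA-binding protein gene derived from a LINE-1 element, gave 12.48 and 12.57 against 12.21 and 12.20. Its fall of -0.32 ± 0.08 (limma, adjusted p = 0.0367) did not pass with the arrays centred (-0.29, adjusted p = 0.0533).

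Dppa2 rose on both of its probe sets. It encodes a SAP domain protein that works in a pair with Dppa4 to keep developmental promoters open. The values were 11.55 and 11.55 in control cells against 12.06 and 12.11 after RNAi on 1429654_at, and 11.80 and 11.74 against 12.38 and 12.32 on 1453223_s_at. The rises of 0.535 ± 0.08 and 0.58 ± 0.08 (limma, adjusted p = 0.00628 and 0.00547) did not differ from each other by the test of their difference (0.045 ± 0.11, limma, adjusted p = 0.827). For the partner Dppa4 the values were 11.78 and 11.84 against 11.67 and 11.78, where the groups touched (-0.085, adjusted p = 0.538). The difference between the responses of Dppa2 and Dppa4 was not tested.

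Gdf3 encodes a ligand of the TGF-beta family. Its brighter probe set, 1449288_at, gave 9.81 and 9.87 against 9.78 and 9.86 (-0.02, adjusted p = 0.896). Its dimmer probe set, 1460057_at, gave 7.87 and 7.88 against 8.44 and 8.27 and rose by 0.48 ± 0.09 (limma, adjusted p = 0.0147). Fbxo15, an F-box gene used as a reporter of pluripotency, gave 12.90 and 12.92 against 12.95 and 12.97 (0.05, adjusted p = 0.702). Dppa5a, which encodes an RNA-binding protein abundant in ES cells, gave 14.27 and 14.30 against 14.10 and 14.15. These arrays did not overlap, and the difference of -0.16 did not pass (adjusted p = 0.210), except with a variance trend (adjusted p = 0.00762).

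**Figure D3:**
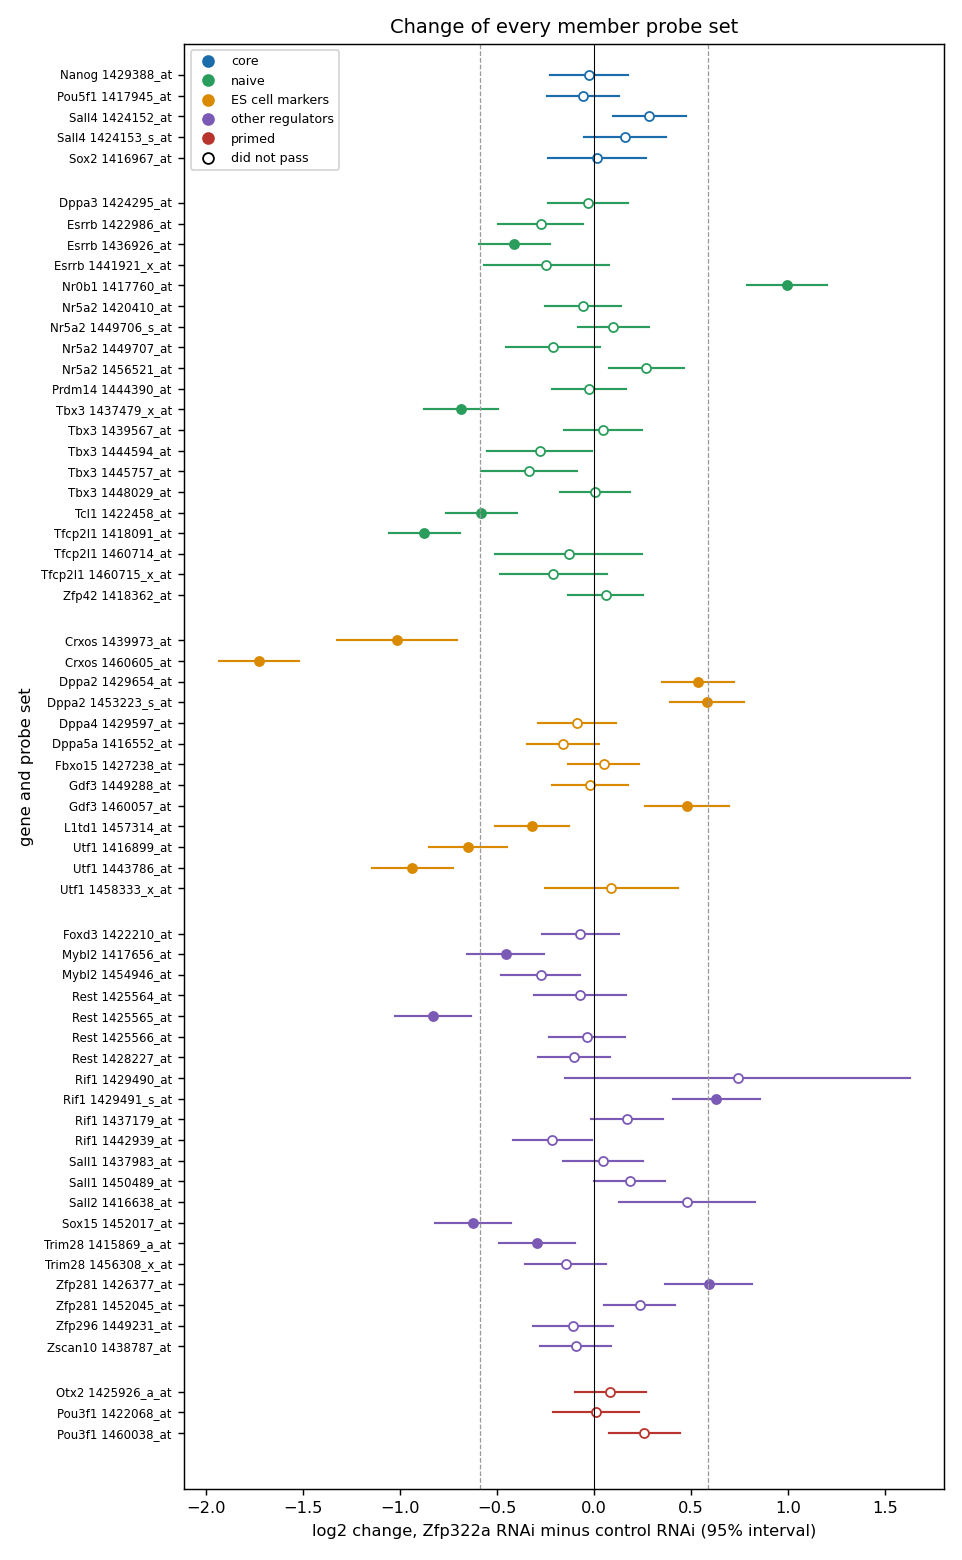
Log2 change, Zfp322a RNAi minus control RNAi (x axis), of each of the 62 member probe sets (y axis), with 95% confidence intervals of limma as horizontal lines. Filled points had an adjusted p under 0.05 over all probe sets, dashed lines mark 1.5-fold in each direction, and Rif1 1429490_at has the widest interval, from -0.15 to 1.63.

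Among the 11 other regulators, Rest, Sox15, Mybl2 and Trim28 had a probe set that fell, and Rif1 and Zfp281 one that rose. Of 21 probe sets 2 were higher and 4 lower, with a median change of -0.07. The share that passed was 28.6%, beside 20.1% of all probe sets and 32.9% of those at or above the median level. Sox15, a Sox factor that can bind alongside Oct4, gave 7.32 and 7.41 in control cells against 6.71 and 6.77 in knock-down cells. It is covered by 1 probe set, on which it fell 1.54-fold (-0.625 ± 0.08, limma, adjusted p = 0.00475). Mybl2, a Myb family factor of the cell cycle, gave 10.53 and 10.65 against 10.14 and 10.13 on one probe set and 10.57 and 10.68 against 10.39 and 10.31 on the other. The first fell (-0.455 ± 0.08, limma, adjusted p = 0.0135) and the second gave -0.275 (adjusted p = 0.0701), without a detectable difference between them (limma, adjusted p = 0.292).

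Rest, the repressor of neuronal genes, gave 11.74 and 11.77 in control cells and 10.98 and 10.87 after RNAi on its brightest probe set, 1425565_at. The fall was 1.78-fold (-0.83 ± 0.08, limma, adjusted p = 0.00234). On 1428227_at the same gene gave 10.98 and 10.99 against 10.91 and 10.85, which did not pass (-0.105, adjusted p = 0.406), and the dimmer ones gave -0.035 and -0.07. Trim28 encodes the co-repressor KAP1, which silences endogenous retroviruses. It gave 12.67 and 12.77 against 12.44 and 12.41 on 1415869_a_at. That fall of -0.295 ± 0.08 (limma, adjusted p = 0.0496) had the highest adjusted p of the member calls, and it did not pass with arrays centred (adjusted p = 0.0741) or with cross-hybridizing probe sets left out (0.0505).

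Rif1, which controls replication timing and protects telomeres, rose on 1429491_s_at, with 11.82 and 11.66 in control cells and 12.42 and 12.32 after RNAi (0.63 ± 0.09, limma, adjusted p = 0.00692). The suffix _s_at also marks a probe set open to cross-hybridization, and the call of Rif1 rests on it alone. Its brightest probe set gave 12.32 and 12.39 against 12.52 and 12.53 (0.17, adjusted p = 0.189), and 1442939_at gave 10.97 and 10.87 against 10.75 and 10.66 (-0.215, adjusted p = 0.135). The last, 1429490_at, spread widely within both groups, at 10.14 and 9.19 against 10.81 and 10.00, and its difference of 0.74 ± 0.36 did not pass (adjusted p = 0.224). So the 4 Rif1 probe sets gave 3 differences above 0 and 1 below. Zfp281, a zinc finger factor that binds Nanog, gave 9.85 and 9.71 against 10.43 and 10.31 on 1426377_at and 10.55 and 10.51 against 10.76 and 10.77 on 1452045_at. The former rose 1.51-fold (0.59 ± 0.09, limma, adjusted p = 0.00817), and the latter, at 0.235, did not pass (adjusted p = 0.0805).

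For the other regulators no change was detected on any probe set. Sall2, a relative of Sall4, had 4.54 and 4.92 in control cells against 5.11 and 5.31 in knock-down cells, at a low level on these arrays. Its difference of 0.48 ± 0.14 (95% interval 0.13 to 0.83, adjusted p = 0.0661) is one of 2 among the uncalled whose interval reaches 1.5-fold, beside Rif1 1429490_at. The 2 probe sets of Sall1, another relative, gave 0.045 and 0.185. The zinc finger factors Zscan10 and Zfp296, both found in ES cells, gave -0.095 and -0.11, and the forkhead factor Foxd3 gave -0.07 (limma, adjusted p between 0.434 and 0.611 for these 3).

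The factors of primed cells showed no change that passed. Otx2, a homeobox gene that drives exit from the naive state, gave 9.52 and 9.52 in control cells and 9.59 and 9.62 after RNAi. Its difference was 0.085 (95% interval -0.10 to 0.27, limma, adjusted p = 0.496). Pou3f1, the gene of the POU factor Oct6, gave 6.72 and 6.87 against 6.75 and 6.86 on one probe set and 6.49 and 6.51 against 6.78 and 6.74 on the other. The first overlapped fully (0.01), and the second lay apart by 0.26 ± 0.075 (adjusted p = 0.0604), which passed with dim probe sets left out, arrays centred or quantiles normalized again.

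Since several genes gave unlike changes on different probe sets, the difference itself was tested. For each of the 16 members with more than 1 probe set, the change on the brightest was set against that on each other one (limma on the difference per array, adjusted over all 16752 such pairs on the array, a test added after the members' values were seen). In 11 of 28 pairs, from 7 genes, the changes differed, beside 17.5% of all pairs. In Rest, the log2 value of 1425565_at minus that of 1428227_at was 0.76 and 0.78 on the control arrays and 0.07 and 0.02 after RNAi. In Tbx3, the value of 1437479_x_at minus that of 1448029_at was 0.33 and 0.38 on the control arrays and -0.37 and -0.30 after RNAi. These per-array differences did not overlap between the groups in either gene, and the changes differed by -0.725 ± 0.10 for Rest and -0.69 ± 0.10 for Tbx3 (limma, adjusted p = 0.00616 and 0.00744). For Gdf3 the difference was -0.50 ± 0.12 (adjusted p = 0.0340) and for Rif1, against 1429491_s_at, -0.46 ± 0.12 (adjusted p = 0.0446). Crxos fell on both of its probe sets, and by more on the brighter one (-0.71 ± 0.16, adjusted p = 0.0271). In Tfcp2l1 and Utf1 the pairs that differed set a bright probe set against one with levels below 5.8. Which transcripts each probe set reads was not analysed here.

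**Figure D4:**
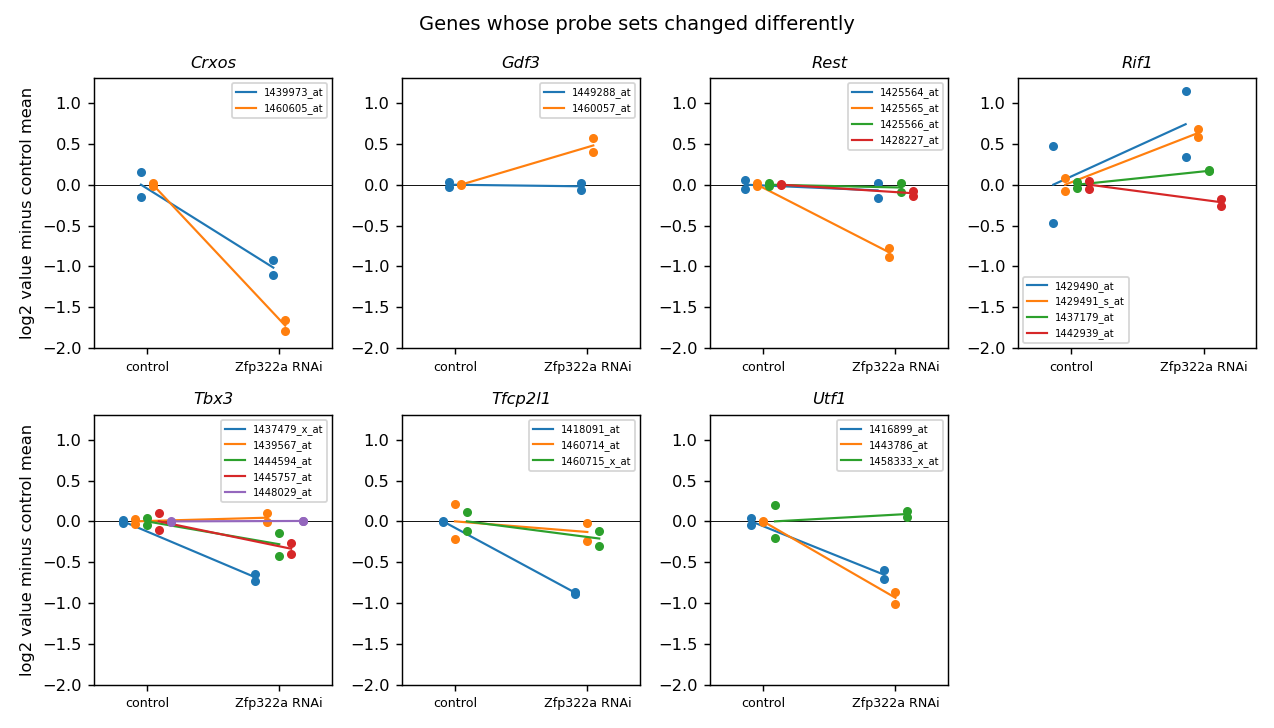
Log2 value of each array minus the control mean of its probe set (y axis) in control and Zfp322a RNAi cells (x axis) for the 7 genes with a pair of probe sets whose changes differed; points are arrays, lines join group means and colours are probe sets. In Rest, 1425565_at falls to -0.83 while the other 3 probe sets stay between -0.105 and -0.035.

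Further genes of the network that are no members also went both ways. Of 60 such genes measured (143 probe sets), 23 had a probe set that rose, 20 had one that fell, 2 of these, Jam2 and Tet1, had both, and 19 had none (limma). That is 68.3% of these genes with a call, at 2.38 probe sets per gene, beside 31.2% of all genes at 1.92. By probe set, 61 of 143 passed (42.7%, beside 20.1% of all), and of those at or above the median level 58 of 122 (47.5%, beside 32.9%). These lists were chosen with earlier results of these data known, so no excess of calls in the network can be read from these shares. Among 13 further naive genes, 6 had a rise and 8 a fall, and 57.1% of their 28 probe sets passed. The largest rises were those of Spic, an Ets family factor (1.93 ± 0.11), Jam2, a junction protein (0.84 ± 0.08), and Klf2, a Krüppel-like factor (0.52 ± 0.08). Falls there were led by Khdc3, a maternal effect gene (-1.115 ± 0.09), Klf5, another Krüppel-like factor (-0.83 ± 0.08), and Zfp57, which protects imprints (-0.54 ± 0.08). Calls among the naive genes thus went in both directions. The calls of Spic rest on _s_at and _x_at probe sets alone, which are open to cross-hybridization. The Spic probe set at 1.93 had a mean below the median level, with 4.47 and 4.73 in control cells against 6.61 and 6.45 after RNAi.

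Among 16 further genes of primed cells, 7 had a rise and 4 a fall. Of their 39 probe sets 48.7% passed, beside 20.1% of all probe sets and 32.9% of those at or above the median level. The N-cadherin gene Cdh2 (1.81 ± 0.14) and the zinc finger genes Zic2 (1.36 ± 0.23) and Zic5 (0.86 ± 0.09) rose furthest. Eomes, a T-box factor (-0.90 ± 0.08), the DNA methyltransferase gene Dnmt3b (-0.675 ± 0.10) and Grhl2, a grainyhead factor (-0.615 ± 0.13), fell furthest. The other Dnmt3b probe set, which was brighter, gave -0.285, and the other Grhl2 probe sets lay between -0.135 and -0.06. None of these passed. Among 31 further regulators, 10 had a rise and 8 a fall, and 34.2% of their 76 probe sets passed. Rises were led by Myc (1.12 ± 0.10), Zfx (1.04 ± 0.24) and Mycn (0.775 ± 0.08), all growth or self-renewal factors. The Ets factor gene Etv4 (-1.205 ± 0.11), the 5-methylcytosine oxidase gene Tet1 (-0.93 ± 0.08, with another probe set at 0.45) and the Nodal co-receptor gene Tdgf1 (-0.59 ± 0.08) fell. Adjusted p of these 18 genes lay between 0.00105 and 0.0309 with limma, on the probe set given first for each. Jam2, Klf5, Zic5, Zfx, Mycn and Tet1 also had probe sets that did not pass.

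**Figure D5:**
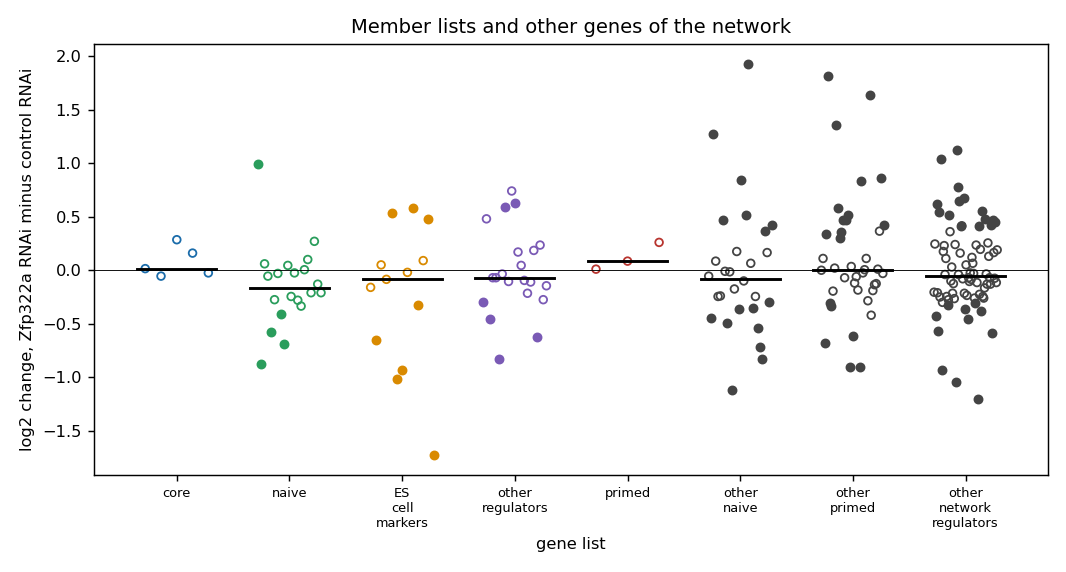
Log2 change, Zfp322a RNAi minus control RNAi (y axis), of each probe set in the 5 member lists (coloured) and the 3 lists of further network genes (dark grey) (x axis); filled points passed the adjusted p of limma and black bars are medians. Medians run from -0.17 (naive) to 0.085 (primed), while single genes of the further lists reach 1.93 (Spic) and -1.205 (Etv4). The Spic value comes from an _s_at probe set, open to cross-hybridization, with a mean below the median level of all probe sets.

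Markers of cell types were read beside these results. Of 8 probe sets of 7 ES cell markers (Pou5f1, Nanog, Sox2, Zfp42, Dppa5a, Fut4, Alpl), 0 rose and 0 fell, and the mean over the list was 10.43 and 10.38 in control cells against 10.34 and 10.33 after RNAi. Pou5f1, Nanog, Sox2, Zfp42 and Dppa5a were above 12.4 on every array, so that these defining markers of ES cells were present in both groups. Of 30 probe sets of 12 endoderm markers 7 rose and 0 fell, 23.3% in all, near the 20.1% of all 45037 probe sets. The rises lay in 5 genes, Gata6, Sox17, Sox7, Pdgfra and Foxa2, and 7 genes (Gata4, Dab2, Lama1, Col4a1, Amn, Afp, Ttr) had no call. Gata6 was at 6.63 and 6.49 against 7.96 and 8.00 on its most changed probe set, while its dimmest gave -0.24 without passing. The endoderm mean was 5.27 and 5.30 in control cells and 5.46 and 5.45 in knock-down cells, and 21 of the 30 lay below the median level. Of 15 trophoblast probe sets 1 rose (Gata3) and 5 fell (Krt7, Krt8, Krt18), 40.0% in all, with means of 6.79 and 6.74 against 6.53 and 6.57. Of 15 fibroblast probe sets 1 rose (Twist1) and 1 fell (Thy1), 13.3% in all, 14 lay below the median level, and means were 4.80 and 4.74 against 4.69 and 4.74. The part of endoderm or trophoblast marker changes in the changes of the network genes was not tested.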

How the data were processed

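Total RNA of 4 samples, 2 per group, was put on Affymetrix MG430 2.0 mouse arrays, 1 array per sample. The authors processed the scans with RMA, which subtracts background, normalizes quantiles and summarises each probe set (version not given in the sources used here), and the deposited log2 values cover 45037 probe sets. A change of all genes one way would not appear in such values, and the table holds no detection calls. Groups came from the sample titles. The labels give 3 days of selection and the study's methods a longer time. Of the probe sets 34945 had 1 symbol (34741 updated by Entrez ID through RefSeq, GRCm38.p6), 932 had several and 9160 had none. Every probe set was tested with limma 3.58.1 under R 4.3.3 (linear models with empirical Bayes variances and no term but the group, which leaves 2 residual degrees of freedom; two-sided), and p-values were adjusted over all probe sets by Benjamini-Hochberg at a threshold of 0.05, after a check on simulated data. The number of arrays limits the precision: the median standard error was 0.082 for member probe sets, and an exact permutation test with 2 arrays against 2 could not pass the threshold. The named genes are all probe sets of the members, Zfp322a, Actb, the markers and, in each list of further genes, the 3 largest rises and falls that passed. Members and lists were chosen with earlier results of these data known. Other features tested, filters, scalings, variance models, a replicate block and leaving out arrays were tried as alternatives.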

Additional observations from a re-analysis of the deposited data

How the results depend on the processing

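No member change that passed turned its direction under any alternative run, and 25 of 636 values compared changed sign, all of them values that did not pass. The counts stood at 6 member probe sets higher and 13 lower (5 and 11 genes), 23 further network genes higher and 20 lower, and 11 differing pairs of probe sets. With probe sets under the median level left out, 11 member probe sets and 9 member genes were higher, and with a variance trend 11 and 8. With arrays centred on their medians 8 member genes were higher. With probe sets averaged per gene, 15 further genes were higher. At the 1.5-fold rule with no test, 3 member genes were higher, 8 member probe sets and 6 member genes lower, and 9 further genes higher and 8 lower. With _x_at and _s_at probe sets left out, 6 pairs differed. The causes were not tested.

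The labels do not say whether same-numbered samples were prepared together. Their deviations correlated at 0.056 over all probe sets, a value that cannot settle this for single probe sets. With the replicate block, which leaves 1 residual degree of freedom, every one of these counts was 0 (limma, adjusted p of the member calls between 0.0513 and 0.114). Without any 1 array every count ranged from 0 to 0 as well, with 10572 to 11509 of all probe sets at an unadjusted p under 0.05, the lowest adjusted p of a member between 0.110 and 0.138, and no called member change moved by over 1.5 times. On the full data and apart from the block, the calls of Trim28 (arrays centred, or cross-hybridizing probe sets left out) and L1td1 (arrays centred) were lost, and with _x_at and _s_at probe sets left out Tbx3 and Rif1 had no call. The 2 arrays per group, without detection calls, limit what can be seen of dim probe sets.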
